A study of Mus musculus with 12 samples.

Results

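The transcriptome of unstimulated RAW264.7 cells was described from the untreated libraries alone: 3 of the 12 libraries of the series, taken by their labels and not by any measured value. RAW264.7 is an adherent mouse line with macrophage properties that was established from a tumour induced by Abelson leukaemia virus in a male mouse. RNA was sequenced from wild-type RAW264.7 cells in 4 groups of 3 libraries. One group was left untreated, another received an anti-CD36 antibody at a dilution of 1 in 100, another received bacterial lipopolysaccharide (LPS) at 50 ng/ml, and the last received both agents. The untreated group received neither agent, and no treated library entered the levels below. The labels do not say whether the 3 untreated libraries came from separate cultures, so their spread may be technical.

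Macrophages recognise microbes and debris through Toll-like, lectin, scavenger and Fc receptors, digest them in lysosomes, and answer with cytokines and lipid mediators. Their lineage is set by the transcription factor PU.1, encoded by Spi1, and is kept alive through the receptor for colony-stimulating factor 1, encoded by Csf1r. Macrophages of a tissue add genes that depend on their surroundings, while a cell line in culture also runs the programmes of growth and division.

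Levels are given in FPKM, read counts scaled by the length of the gene model and by the depth of the library. This allows an approximate comparison between genes of the same library. For most entries that length was the one of all annotated exons joined, which can exceed the length of the transcripts made. Ranks and ratios between genes carry this limit. Untreated replicates 1, 2 and 3 rested on 54137810, 30070450 and 36115340 reads, recovered from the steps of the values. A gene of 2000 bases at 1 FPKM stood for 60.1 to 108.3 reads, a counting error of 9.61 to 12.9% if reads were independent and of 13.6 to 18.2% if mates of a pair were counted separately. In what follows a gene is called expressed at 1 FPKM or more in each of the 3 libraries. Of 31717 genes, 9547 were expressed, 15507 were at 0 in all 3 libraries, 3195 were above 0 but under 0.1 FPKM in each, and 3468 lay between. Among the 20539 protein-coding genes, 9076 (44.2%) were expressed. The number of expressed genes in each list below is to be read beside this share. The number above 0 was 14876, 14322 and 14807 in replicates 1 to 3, and the number at 1 FPKM or more was 9720, 9804 and 9907. The deepest library thus did not hold the most genes at 1 FPKM or more.

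Most RNA molecules came from few genes. The 29 genes with a mean of 1000 FPKM or more held 23.2% of the summed FPKM, the 441 genes between 100 and 1000 FPKM held 34.7%, the 4017 genes between 10 and 100 FPKM held 34.2%, and the 5349 genes between 1 and 10 FPKM held 7.55%. The summed FPKM is a rough measure of the number of transcripts, with the limit of gene model length given above. The 100 most abundant genes together held 39.2, 37.7 and 34.8% of it in replicates 1 to 3, a mean of 37.2 ± 2.28% (SD, n = 3).

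**Figure D1:**
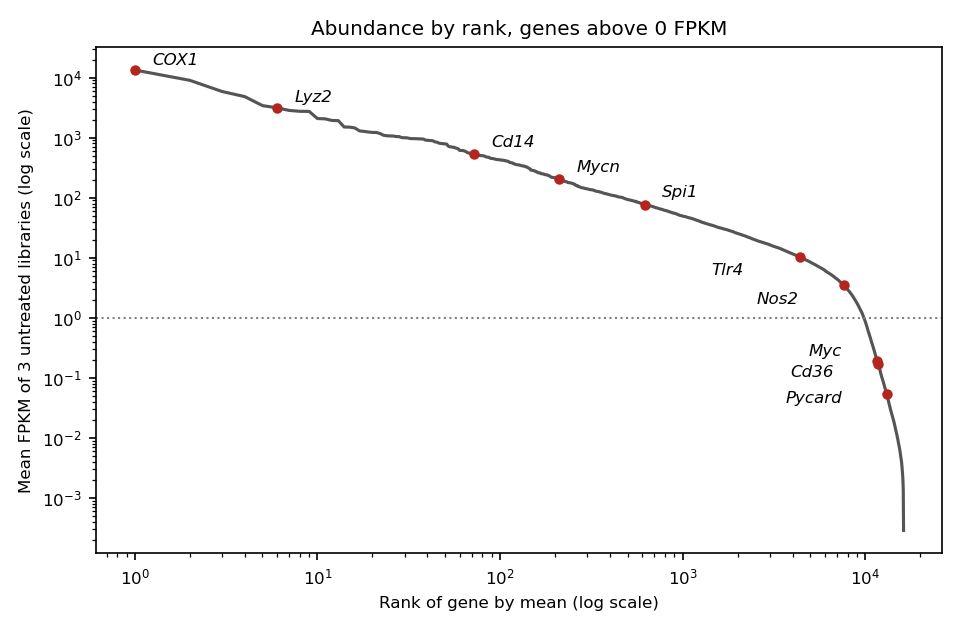
Mean FPKM of the 3 untreated libraries against the rank of the gene, both on log scales, with selected genes marked and a dotted line at 1 FPKM. The curve runs from COX1 at 13387 FPKM through Lyz2 and Cd14 to Tlr4 and Nos2 near its bend, while Myc, Cd36 and Pycard lie below the line.

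Messages encoded by the mitochondrial genome led the ranking. COX1, a subunit of cytochrome c oxidase, was the most abundant gene at 13847, 13892 and 12422 FPKM. ND1, a subunit of complex I, followed at 10264, 9412 and 7362 FPKM, highest in replicate 1 and lowest in replicate 3. CYTB of complex III stood at 6328, 6097 and 5219 FPKM. The 13 mitochondrial messages held 11.5 ± 0.50% of transcripts, and 7 of them were among the 30 most abundant genes. Their levels were far from even: COX3, another subunit of the same oxidase, had 202, 168 and 158 FPKM, so that COX1 exceeded it 68.5-fold, 82.9-fold and 78.6-fold in the 3 libraries. ATP8 was the lowest at 11.1, 9.13 and 6.51 FPKM. For each of the 13 genes, the length that turned its values into whole reads was exactly its annotated length. How reads shared with nuclear copies of mitochondrial DNA were assigned was not tested.

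The protein synthesis machinery came next. Eef1a1, which brings aminoacyl-tRNA to the ribosome, was the most abundant nuclear gene at 4687, 4883 and 4902 FPKM. The 79 ribosomal protein genes held 15.0, 13.0 and 11.2% of transcripts in replicates 1 to 3, and 45 of the 100 most abundant genes belonged to them. All 19 genes listed under translation factors were at 10 FPKM or more in every library. Among them were Eef2 at 964 ± 123 FPKM (SD, n = 3, as for all values with ± below) and Eif5a at 794 ± 116 FPKM. Tpt1, counted in this list though not a factor of initiation or elongation, had 694 ± 136 FPKM. The ribosomal share was highest in replicate 1 and lowest in replicate 3, and the gene properties that went with this spread are given at the end.

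Ribosomal proteins assemble in near equal numbers, but the values of their genes ranged widely. Rps15 was the highest in FPKM, at 2574, 2139 and 1525. Rpsa had more reads than Rps15, 209947, 93444 and 78328 against 87792, 40521 and 34697, over gene models of 3170 and 630 bases. By contrast, Rpl24 had 0.412, 0.581 and 1.59 FPKM, Rps10 2.52 ± 0.271 FPKM and Rpl26 31.1, 21.5 and 20.5 FPKM. Some genes sit beside abundant pseudogene entries. Among the low ones just named this holds for Rpl26, while no pseudogene entry at 10 FPKM or more was closest to Rpl24 or Rps10. Gm15772, a processed pseudogene whose annotated transcript is 99.5% identical to an Rpl26 transcript over its whole length, was the ninth most abundant entry at 3395, 2688 and 2137 FPKM. Gm13394 stood at 2239, 2036 and 1488 FPKM and is 99.9% identical to Gapdh, itself at 757, 700 and 536 FPKM. In reads Gapdh was the higher, with 169368, 87001 and 79985 against 121239, 61222 and 53750, over gene models of 4133 and 1000 bases. Gm8730 had 1577, 1319 and 992 FPKM and is 98.7% identical to Rplp0, which had 988, 812 and 594 FPKM. Here too the gene had more reads, 88775, 40494 and 35579 against 81452, 37840 and 34181, over gene models of 1659 and 954 bases. In all, 48 pseudogene entries had a mean of 10 FPKM or more. For 45 of them a protein-coding transcript aligned over more than 50% of their length, in 33 cases that of a ribosomal protein gene, and in 44 cases with 95% identity or more. The copy had the higher mean FPKM in 10 of the 45 pairs, a count that depends on the gene model lengths as well as on reads. The level of a gene with such a copy is therefore uncertain, and so is that of the copy.

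Among the 100 most abundant genes only a few were typical of macrophages. Lyz2, the lysozyme of myeloid cells, ranked sixth at 3567, 3179 and 2675 FPKM and was highest in replicate 1 and lowest in replicate 3. Spp1, which encodes the secreted adhesion protein osteopontin, ranked eighth at 2610, 2585 and 3045 FPKM and ran the other way, with replicate 3 the highest. Ifitm3, a membrane protein that restricts virus entry, had 1585, 1266 and 962 FPKM. Car2, a carbonic anhydrase that osteoclasts use to make acid, had 1303, 1218 and 1145 FPKM, close to Actb (β-actin) at 1278, 1293 and 1089 FPKM, and these 2 genes overlapped over the libraries. Ptma and Npm1, nuclear proteins abundant in dividing cells, had 2842 ± 168 and 1242 ± 93 FPKM.

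The promoters of abundant and silent genes can be read beside these levels. In vertebrate genomes housekeeping genes often start in DNA rich in CpG dinucleotides, and many tissue-specific genes do not. Below are the 100 bases before the first transcription start that RefSeq lists, on the gene's strand, 5′ to 3′, from the RefSeq promoter table for GRCm38.p6, the build of all coordinates here. Capitals mark each CpG, except for Tnf, where they mark TATAA. Lyz2 and Spp1 are shown as the most abundant genes associated with macrophages, Pkm and Ldha as abundant glycolytic genes, and Ldhb, Cdkn2a and Marco as silent genes of both promoter kinds.
Lyz2, chr10:117282273-117282372 (minus strand): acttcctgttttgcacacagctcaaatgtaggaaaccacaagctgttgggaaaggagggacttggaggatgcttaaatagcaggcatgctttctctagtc
Spp1, chr5:104435011-104435110 (plus strand): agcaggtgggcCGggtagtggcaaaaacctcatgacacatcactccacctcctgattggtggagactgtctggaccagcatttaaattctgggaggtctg
Pkm, chr9:59656476-59656575 (plus strand): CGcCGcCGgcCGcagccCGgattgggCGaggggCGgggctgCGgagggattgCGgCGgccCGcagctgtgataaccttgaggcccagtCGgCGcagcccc
Ldha, chr7:46845704-46845803 (plus strand): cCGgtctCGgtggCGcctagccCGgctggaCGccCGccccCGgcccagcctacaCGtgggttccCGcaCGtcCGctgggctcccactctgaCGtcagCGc
Ldhb, chr6:142507958-142508057 (minus strand): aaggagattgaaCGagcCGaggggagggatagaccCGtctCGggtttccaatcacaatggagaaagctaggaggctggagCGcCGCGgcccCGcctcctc
Cdkn2a, chr4:89294620-89294719 (minus strand): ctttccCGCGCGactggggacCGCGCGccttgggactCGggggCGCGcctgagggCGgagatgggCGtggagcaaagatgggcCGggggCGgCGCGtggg
Marco, chr1:120505025-120505124 (minus strand): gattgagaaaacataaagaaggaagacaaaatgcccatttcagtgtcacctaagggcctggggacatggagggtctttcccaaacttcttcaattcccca
Tnf, chr17:35202008-35202107 (minus strand): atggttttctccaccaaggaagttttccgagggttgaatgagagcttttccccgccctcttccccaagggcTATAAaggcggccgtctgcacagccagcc
These 100 bases held 0 CpG in Lyz2, 1 in Spp1, 13 in Pkm and 13 in Ldha, although all 4 genes were above 1000 FPKM on average. They held 8 in Ldhb, 15 in Cdkn2a and 0 in Marco, all of which were at 0 FPKM in every library. Neither kind of promoter window thus went with a single level in these genes, which were chosen after their values were seen. The same was counted over lists in windows of 300 bases (250 before and 50 after the start), as the CpG ratio, the number of CpG divided by that expected from the C and G content. Among expressed protein-coding genes with a window, 7417 of 9076, the median ratio was 0.80, and 79.1% exceeded 0.6. The 24 windows of macrophage identity genes had a median of 0.24, and 2 exceeded 0.6, Coro1a and Lcp1. The 31 windows of DNA replication and mitosis genes had a median of 0.93, and 29 exceeded 0.6. For genes at 0 in every library a window was at hand for 78.9%, under the 80% set as a minimum, so their comparison with expressed genes is void and no ratio is given. The letters TATAA were searched on the gene's strand from 45 to 16 bases before the start. They were found in 1.51% of the windows of expressed protein-coding genes. Over all 27025 RefSeq promoters the share was 4.23%. That set also holds genes that are not protein-coding or not in the data, so these shares are not compared.

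Of 30 macrophage identity genes 25 were expressed, beside 44.2% of all protein-coding genes. The list was chosen with earlier results of these data known, so this count does not test the label of the line. Csf1r had 207, 224 and 218 FPKM, with less than 10% between the lowest and the highest library. Cd14, the co-receptor that hands LPS to TLR4, had 584, 559.6 and 444 FPKM, lowest in replicate 3. The lysosomal glycoprotein Cd68 stood at 499.6 ± 46.7 FPKM, the signalling adaptor Tyrobp at 379 ± 117, the protease gene Ctss at 316 ± 15.9 and the pore-forming Mpeg1 at 67.2 ± 12.7 FPKM. Some other surface markers were much lower than Csf1r and Cd14. Adgre1, which encodes F4/80, had 9.67, 8.62 and 11.2 FPKM, and Itgam, which encodes CD11b, 4.44, 5.94 and 6.13 FPKM. Ptprc, the pan-leukocyte CD45, had 8.37, 9.62 and 13.9 FPKM. The 5 members under the threshold were Aif1 at 0.827 ± 0.0932 FPKM, Ly6c1 at 0.808 ± 0.246, Ly6c2 at 0.794 ± 0.265, Ccr2, the receptor of monocyte recruitment, at 0.18 ± 0.074, and Mertk, which engulfs apoptotic cells, at 0.0383, 0.0153 and 0.0128 FPKM, the last resting on 9, 2 and 2 reads.

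Genes that mark macrophages of particular tissues were mostly silent. Of 26 such genes 2 were expressed, 1 of them at 10 FPKM or more in every library, 3 lay between, and 6 were above 0 but under 0.1 FPKM. Apoe, the lower of the expressed pair, a lipoprotein that macrophages in tissues make in large amounts, had 1.71, 2.16 and 3.56 FPKM, highest in replicate 3. In 15 the value was 0 in all 3 libraries, among them the scavenger receptors Marco and Cd163, the Kupffer cell genes Timd4, Vsig4 and Clec4f, the peritoneal factor Gata6, the lectin-like Chil3, and C1qa, C1qb and C1qc, the chains of complement C1q. If reads were independent, a count of 0 for Marco allows up to 0.0129 FPKM, from 3 reads over the 3 libraries. Over the 206 listed genes at 0, this limit ran from 0.00134 to 0.0608 FPKM, and it covers counting error only. If mates of a pair were counted separately, each limit is higher. The mannose receptor Mrc1 had 0.0118 ± 0.008 FPKM. Markers of alternative activation, the state induced by interleukin-4, were low as well, with 2 of 19 expressed: Egr2 at 3.14 ± 0.24 and the chemokine Ccl22 at 2.45 ± 0.332 FPKM. Arg1, which splits arginine into ornithine and urea, had 0.108, 0.179 and 0.162 FPKM, on 12 or 13 reads a library, while Retnla, Mgl2, Ccl24 and Il10 were at 0.

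The genes of the LPS receptor complex, Tlr4, Ly96 and Cd14, were all expressed, at unequal transcript levels. Tlr4 had 8.82, 9.43 and 12.8 FPKM, highest in replicate 3. Ly96, which encodes its partner MD-2, had 9.01, 9.97 and 10.6 FPKM, and the ranges of the 2 genes overlapped. Cd14 exceeded Tlr4 by 53.4 ± 16.5-fold. Of the other Toll-like receptors, Tlr2, which reads bacterial lipoproteins, was the highest at 42.9, 43.1 and 43.8 FPKM, with libraries that hardly differed. Tlr7, a sensor of single-stranded RNA, had 31.2, 33.8 and 44.2 FPKM, which overlapped with Tlr2. Tlr13, for bacterial ribosomal RNA, had 10.4, 11.2 and 15.4 FPKM and overlapped with Tlr4. The partners of Tlr2 were lower, Tlr6 at 2.57, 2.95 and 3.62 and Tlr1 at 2.44, 2.7 and 3.58 FPKM, also overlapping. Tlr9, a sensor of unmethylated CpG DNA, had 1.24, 1.45 and 1.34 FPKM, and Tlr3, for double-stranded RNA, 0.905, 1.13 and 1.37 FPKM, which was not 1 FPKM or more in every library. Tlr8 had 0.0319 ± 0.0139 FPKM. The flagellin receptor Tlr5 and the parasite sensors Tlr11 and Tlr12 were at 0 in all libraries. Unc93b1, which carries the nucleic acid sensing receptors to endosomes, had 59.9 ± 7.04 FPKM, and Cd180 and Ly86, a pair that dampens TLR4 signals, had 21.4 ± 1.18 and 35.9 ± 6.23 FPKM.

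**Figure D2:**
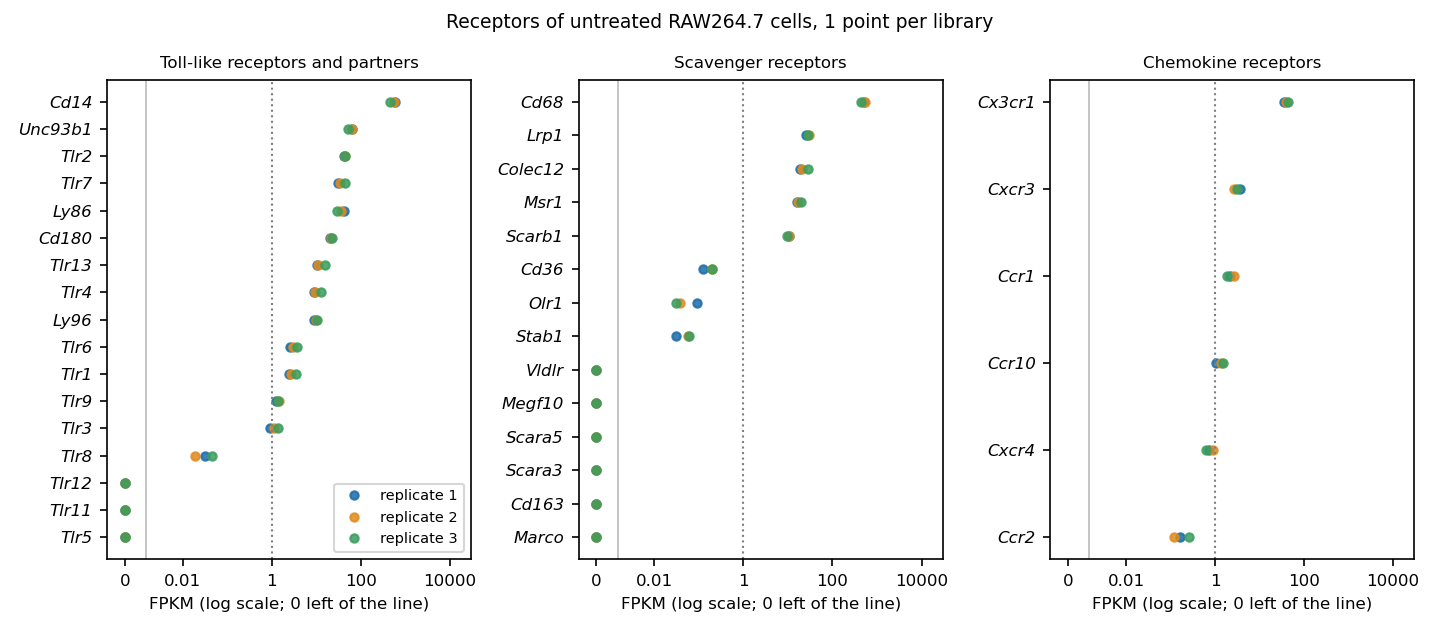
FPKM of the Toll-like receptors with their partners, scavenger receptors and chemokine receptors that the text names, in the 3 untreated libraries, 1 point per library on a log axis, with values of 0 left of the grey line and a dotted line at 1 FPKM. Tlr2 and Tlr7 lie near 40 FPKM, Tlr5, Tlr11, Tlr12 and Marco are at 0, and Cx3cr1 stands alone among chemokine receptors above 10 FPKM.

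Sensors in the cytosol were expressed for 17 of 25 members. The pyroptosis pore gene Gsdmd had 35.3 ± 3.48 FPKM, the DNA sensors Aim2 and Cgas 23.9 ± 4.05 and 18.6 ± 3.94, the adaptor Sting1 14.3 ± 1.71, and the RNA sensor Rigi, listed under its older name Ddx58, 12.8 ± 3.4 FPKM. Nlrp3, the sensor of the best studied inflammasome, had 10.8, 11.9 and 13.4 FPKM, and Casp1, its protease, 7.89, 9.13 and 9.61 FPKM. Pycard, which encodes the adaptor ASC that joins sensor and protease, had 0.0437, 0.0875 and 0.0291 FPKM on 9, 10 and 4 reads, so that in each library sensor and protease were over 100 times above the adaptor. Nlrp12 and Mefv were at 0, and Nod1 stood at 0.032 ± 0.012 FPKM. Nod2 and Nlrc4 had 0.569 ± 0.0569 and 0.576 ± 0.22 FPKM.

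Of 22 scavenger receptors 8 (36.4%) were expressed, beside 44.2% of protein-coding genes. Cd68 led, followed by Lrp1, a large endocytic receptor, at 25.4, 29.7 and 27.7 FPKM, Colec12, a collectin of the cell surface, at 19.1, 21 and 28.1 FPKM and Msr1, the class A receptor for modified lipoproteins, at 16.1, 16.9 and 19.4 FPKM. Scarb1, the receptor for high-density lipoprotein, had 10.3 ± 0.63 FPKM. Cd36, the target of the antibody used in other groups of the series, had 0.123, 0.195 and 0.193 FPKM, from 24, 21 and 25 reads. It lay below 0.2 FPKM in each untreated library, and did not overlap with Scarb1, a member of the same family. Olr1 and Stab1 had 0.0538 ± 0.0342 and 0.0493 ± 0.0163 FPKM, and Marco, Cd163, Scara3, Scara5, Megf10 and Vldlr were at 0.

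Lectins, Fc receptors and receptors for dying cells held a few high genes among many low ones. Among C-type lectins and galectins, 10 of 18 (55.6%) were expressed, beside 44.2% of protein-coding genes. Lgals3 (galectin-3) had 400.4, 322 and 246 FPKM, Clec4d 92.6, 71.8 and 60.1 FPKM and Clec5a 42 ± 6.12 FPKM. Clec4e, the Mincle receptor for mycobacterial glycolipid, had 12.3 ± 0.712 FPKM. Clec7a, which encodes the β-glucan receptor dectin-1, had 2.61 ± 0.354 FPKM. Fcer1g, the signalling chain of Fc receptors, had 156, 136 and 113 FPKM. Its ligand-binding partners were lower, with the high-affinity Fcgr1 at 25.6, 27.5 and 24.3 FPKM, Fcgr3 at 4.24, 4.02 and 2.39 and Fcgr4 at 1.03, 1.43 and 0.838 FPKM. Fcgr2b, the inhibitory receptor, had 1.5, 1.81 and 1.72 FPKM. Fcrl1, a receptor otherwise typical of B cells, had 18.8, 18.1 and 18.3 FPKM. Of the receptors that bind phosphatidylserine bridges on dying cells, Axl had 14.5, 16.9 and 15.2 FPKM, against the low Mertk given above and Tyro3 at 0.068 ± 0.0149 FPKM. Sirpa, the brake that reads CD47, had 50.8 ± 2.34 FPKM, Cd47 itself 15.1 ± 0.515, and Trem2, a lipid receptor that signals through Tyrobp, 38.6 ± 7.18 FPKM. Trem1 had 0.0641 ± 0.0408 FPKM. Properdin (Cfp), which stabilises the complement convertase, had 86.8 ± 21.3 FPKM, and C3 0.288 ± 0.107 FPKM.

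Chemokine receptors were largely absent. Cx3cr1, the fractalkine receptor of monocytes and microglia, was the only one of 24 above 10 FPKM, at 35.2, 39.3 and 44.2 FPKM, and its highest library exceeded its lowest by less than 1.3-fold. The next were Cxcr3, Ccr1 and Ccr10, receptors of lymphocyte and monocyte chemokines, at 3.16 ± 0.499, 2.24 ± 0.427 and 1.31 ± 0.248 FPKM, and Cxcr4, the receptor for Cxcl12, had 0.757 ± 0.12 FPKM. Of cytokine and growth factor receptors, 24 of 47 (51.1%) were expressed, beside 44.2% of protein-coding genes. After Csf1r the highest were the shared γ chain Il2rg at 26.1 ± 2.21 FPKM, Ifngr2 at 23.5 ± 3.31, Tgfbr2 at 20.4 ± 1.76, Tnfrsf1a at 19.8 ± 1.01, Ifngr1 at 15.8 ± 0.969 and Tnfrsf11a, which encodes the receptor RANK of osteoclast precursors, at 13.6, 15.1 and 16.1 FPKM. Both chains of the type I interferon receptor were expressed, Ifnar1 at 7.98 ± 1.16 and Ifnar2 at 6.15 ± 0.872 FPKM. The chains of some receptors differed widely: Il10ra had 4.35 ± 0.909 FPKM and Il10rb 0.0576 ± 0.0412, and Il13ra1 had 7.2 ± 0.876 FPKM and Il4ra 0.249, 0.371 and 0.226. Il1r1 had 0.00348 ± 0.00604 FPKM, whereas Il1rl1, the receptor of interleukin-33, had 7.72 ± 1.29 FPKM. Igf1r, Egfr, Kit and Il3ra were at 0.

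Of 16 receptors for nucleotides and adenosine 4 were expressed, and of 27 receptors for lipid mediators 9. P2ry6, for UDP, had 15.1 ± 2.29 FPKM and P2rx7, the ATP-gated channel that triggers inflammasomes, 4.58 ± 0.617 FPKM, while P2ry12 and P2ry13 had 0.0271 ± 0.0262 and 0 FPKM. Gpr183, the oxysterol receptor, had 27.6 ± 1.1 FPKM, Cysltr1 6.11 ± 0.737 and Gpr84, for medium-chain fatty acids, 5.76 ± 0.564 FPKM. The leukotriene B4 receptor Ltb4r1 had 0.0566 ± 0.0761 FPKM. Among integrins Itga4 was the highest at 121, 146 and 207 FPKM, followed by Itgb1 at 57.5 ± 9.61 and the leukocyte chain Itgb2 at 49 ± 3.93 FPKM.

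Transcription factors of the macrophage lineage were expressed in 35 of 43 cases, none at 100 FPKM or more. Spi1 led at 85.3, 81.9 and 63.5 FPKM, with replicate 3 the lowest. Ets2 had 41.4, 45.9 and 43.3 FPKM, Irf5, which drives inflammatory genes, 43.8, 45 and 36.3 FPKM, and Stat6, which acts downstream of interleukin-4, 36 ± 1.01 FPKM. Irf8, a partner of PU.1 in monocyte development, had 7.36, 7.74 and 6.24 FPKM, Cebpa 10.1 ± 1.26, Cebpb 8.79 ± 1.42 and Mitf, a factor of osteoclasts and lysosomes, 7.66, 9.22 and 13 FPKM. Maf, a factor of mature macrophages, was above 0 in replicate 3 alone, at 0.00672 FPKM from 2 reads.

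The MYC family, which drives growth and ribosome production, was represented by Mycn. Mycn, known from embryonic and neuroblastoma cells, had 219, 209.8 and 178 FPKM, more than any listed lineage factor. Myc had 0.252, 0.147 and 0.163 FPKM on 37, 12 and 16 reads, and Mycl was at 0. Mycn thus exceeded Myc by 872-fold, 1428-fold and 1090-fold in the 3 libraries. Their shared partner Max had 47.3 ± 1.81 FPKM. Of 24 factors of growth and proliferation 20 were expressed, among them Atf4 of the amino acid response at 102 ± 14.2 FPKM, Tfdp1, the partner of E2F factors, at 101 ± 4.42, Hif1a at 51.2, 57.8 and 76.4 and Trp53 at 56.4 ± 5.03 FPKM.

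Nuclear receptors, which bind steroids, lipids and vitamins, were expressed in 15 of 48 cases and at 0 in 19. Rxrb, a shared dimer partner, was the highest at 20.5, 19.4 and 16.9 FPKM, against Rxra at 0.0996, 0.105 and 0.114 FPKM, so that the first exceeded the second by 179 ± 29.1-fold. The sterol receptor LXRβ (Nr1h2) had 12.7, 12.9 and 10.4 FPKM and LXRα (Nr1h3) 1.42, 1.8 and 0.815 FPKM. The glucocorticoid receptor Nr3c1 had 8.01 ± 2.25 FPKM. Pparg, which governs lipid genes of alveolar macrophages, had 0.0117 ± 0.0113 FPKM, Ppard 1.52 ± 0.0984 and Vdr, the vitamin D receptor, 0.062 ± 0.027 FPKM, and Ppara was at 0. Immediate early factors were not silent in these unstimulated cells, with 20 of 23 expressed: Ier3 had 247, 223 and 183 FPKM, Junb 33.8 ± 5.38, Egr1 6.9 ± 0.29 and Fos 2.7 ± 0.27 FPKM. Factors of other lineages were expressed in 2 of 32 cases, Gfi1 at 2.82, 2.01 and 2.35 FPKM and Pax6, known from eye and brain, at 1.47, 1.67 and 1.88 FPKM.

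The cells carried the transcripts of active division. All 38 genes of DNA replication and mitosis were expressed, 32 of them at 10 FPKM or more in every library, led by Pcna, the sliding clamp of DNA polymerase, at 244, 213 and 189 FPKM. Mcm5 of the replicative helicase had 93.8 ± 7.04 FPKM, the anaphase activator Cdc20 93.2 ± 10.5 and the proliferation marker Mki67 56.3, 64.3 and 83 FPKM. Cdk4 had 142 ± 27.9 FPKM and its cyclins Ccnd1, Ccnd3 and Ccnd2 had 86.5 ± 3.81, 6.33 ± 1.24 and 1.22 ± 0.121 FPKM. Of the inhibitors, Cdkn1a had 44 ± 4.71 FPKM and Cdkn1b 15.7 ± 1.82, but Cdkn2a and Cdkn2b, neighbours on chromosome 4 that block Cdk4 or protect p53, were both at 0, as was Cdkn1c. The limit for Cdkn2a is 0.0213 FPKM if reads were independent, and higher if mates of a pair were counted separately. Of 25 Abelson, RAS and kinase genes 23 were expressed. Abl1 had 4.51 ± 0.399 FPKM, Btk 35.6 ± 6.14 and Lyn 29.1 ± 4.98. Reads of the viral oncogene that made the line and of cellular Abl1 cannot be told apart here.

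Of 29 genes of glycolysis and glucose transport 24 were expressed, and 7 were among the 100 most abundant genes. Pkm, pyruvate kinase, had 1143, 1115 and 969 FPKM, Ldha, lactate dehydrogenase, 1176, 1095 and 852 FPKM and Pgk1 983, 944 and 939.6 FPKM. Tissue-specific relatives varied: Ldhb and Pklr were at 0 in all libraries, while Aldoc and Eno3 had means of 23.4 and 18.9 FPKM. Against the limit of 3 reads, if reads were independent, Ldha was at least 65560-fold higher than Ldhb. This bound is lower if mates of a pair were counted separately. The glucose carrier Slc2a1 had 47.8 ± 3.59 FPKM and the lactate exporters Slc16a1 and Slc16a3 111 ± 5.67 and 63.2 ± 9.45 FPKM. Genes of the early, regulated steps lay lower, with Hk1 at 31.6 ± 2.03, Hk2 at 28.4 ± 3.14 and Pfkl at 30 ± 0.923 FPKM.

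Mitochondrial metabolism was expressed almost throughout: 29 of 31 genes of the TCA cycle and pyruvate entry and 53 of 54 nuclear genes of oxidative phosphorylation were expressed. Sdhd had 218 ± 42.1 FPKM, Mdh1 144 ± 9.35, Cs (citrate synthase) 77.6 ± 3.34, Atp5a1 419.6 ± 44.4 and Atp5b 400.2 ± 43.8 FPKM. Of the kinases that restrain pyruvate entry, Pdk3 had 22.4 ± 0.144 FPKM and Pdk1 17.7 ± 2.11, while Pdk2 had 0.227 ± 0.0403 and Pdk4 was at 0. Acod1, which makes itaconate in activated macrophages, had 5.74, 6 and 6.52 FPKM. In the pentose phosphate pathway Taldo1, Pgd and G6pdx had 126 ± 23.1, 109 ± 12.3 and 104 ± 4.17 FPKM.

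Sterol synthesis was expressed almost throughout and fatty acid genes in part. Of 25 genes of cholesterol synthesis and uptake 24 were expressed, led by Fdps, which makes farnesyl diphosphate, at 126 ± 19.4 FPKM. Scd2, a desaturase that makes monounsaturated fat, had 235, 277 and 285 FPKM and Scd1 39.4, 47 and 48 FPKM, and their ratio barely moved: 5.95, 5.9 and 5.93. Of 20 genes of fatty acid synthesis 11 (55%) were expressed, and of 42 genes of uptake, binding and oxidation 28 (66.7%). The share of all protein-coding genes was 44.2%. Fasn had 35.7 ± 2.14 FPKM and Acly 70.3 ± 4.65. On the side of uptake, the fatty acid chaperone Fabp5 had 162, 136 and 109.6 FPKM against Fabp4 at 1.85, 1.6 and 1.09 FPKM, and lipoprotein lipase (Lpl) had 39.8, 48 and 59.7 FPKM. The rate-limiting importer of mitochondria Cpt1a had 2.57 ± 0.408 FPKM. For cholesterol efflux Abcg1 had 16, 16.9 and 15.9 FPKM and Abca1 0.413, 0.719 and 1.07 FPKM.

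Genes of polyamine and one-carbon metabolism were high, and several arginine genes were low. Odc1, which commits ornithine to polyamines, had 365, 374 and 345 FPKM, and Srm, the next enzyme, 102 ± 16.3 FPKM, whereas Arg1 and Arg2, the enzymes that make ornithine from arginine, were both under 0.5 FPKM, Arg2 at 0.315 ± 0.171. Oat, which makes ornithine from glutamate semialdehyde or the reverse, had 69.6 ± 2.09 FPKM. Nos2, inducible nitric oxide synthase, had 3.2, 3.66 and 3.49 FPKM. The arginine carriers differed, with Slc7a1 at 17.3 ± 1.54 FPKM and Slc7a2 at 0. Ass1, which recycles citrulline, had 0.119 ± 0.0558 FPKM. All 24 genes of serine, one-carbon and nucleotide synthesis were expressed, led by Paics at 197 ± 8.91, Phgdh at 138 ± 25.4 and Psat1 at 130.1 ± 2.86 FPKM. Ido1, Ido2 and Kynu of tryptophan breakdown were at 0.

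Of 21 genes of eicosanoid synthesis 12 (57.1%) were expressed, beside 44.2% of protein-coding genes. Pla2g4a, the phospholipase that releases arachidonic acid, had 36 ± 5.79 FPKM, Alox5ap 23.4 ± 3.55, Alox5 13.2 ± 0.455 and Lta4h 12 ± 0.583 FPKM, the last 3 of the leukotriene branch. Among prostaglandin genes, the constitutive synthase and cochaperone gene Ptges3 had 243, 245 and 254 FPKM, the highest of the list, Hpgds of prostaglandin D2 19.6 ± 4.72 and Ptges2 5.34 ± 0.996 FPKM. The cyclooxygenase genes Ptgs1 and Ptgs2 had 2.61, 2.51 and 3 and 2.08, 2.86 and 3.8 FPKM and the inducible Ptges 0.198 ± 0.0634. Of the phagocyte oxidase, Cyba had 144 ± 27.1 FPKM, Ncf1 117 ± 7.79, Cybb 84.5 ± 19.6 and Ncf4 34.1 ± 2.1 FPKM, and the GTPase gene Rac2 187 ± 22.6 FPKM. The ferritin chains Fth1 and Ftl1 had 954 ± 164 and 414 ± 91.7 FPKM, the exporter Slc40a1 0.551 ± 0.0911, and the phagosomal metal carrier Slc11a1 5.29, 5.76 and 5.63 FPKM. Of 36 lysosomal genes 33 were expressed, with the cathepsin genes Ctsz, Ctsb and Ctsd at 281 ± 25.4, 207 ± 7.63 and 144 ± 23.5 FPKM, but Ctsk, the collagenase of osteoclasts, at 0.312 ± 0.00493 FPKM.

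Transcripts of some secreted messengers were already present in unstimulated cells. Tnf had 53.6, 55.5 and 48.4 FPKM and did not differ between libraries by more than 1.2-fold. Mif had 1088, 922 and 640.3 FPKM, Tgfb1 29.3 ± 2.23 and Il18 18.7 ± 1.55. Il10, Il12a, Il12b, Ifnb1, Ifna4 and Ifng were at 0, and Csf1, the ligand of the receptor described above, had 0.0613 ± 0.0125 FPKM. Il1a had 0.00936 ± 0.0162 FPKM. Il6 and Il1b are not reported, because the untreated Il6 values equalled those of another entry, Gm10874, in all 3 libraries and the Il1b value of replicate 2 equalled the mean of the other libraries. Of 31 chemokines 7 were expressed and 14 were at 0. Ccl9 had 168, 157 and 127 FPKM, Ccl3 144, 133 and 116 FPKM and Ccl4 94.2, 78.1 and 62.6 FPKM, each lowest in replicate 3, whereas Ccl5 had 2.82 ± 0.353 and Ccl2 1.49 ± 0.508 FPKM. Cxcl2 had 0.359 ± 0.0986 FPKM, and Cxcl1, Cxcl3, Cxcl5, Cxcl9 and Cxcl12 were at 0.

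Antigen presentation split by class. Of 21 class I genes 20 were expressed, with B2m at 1211, 1086 and 904 FPKM, H2-D1 at 130.1 ± 10.4 and H2-K1 at 41.6 ± 3.96 FPKM, and class I genes of this family share sequence, so their separate levels are uncertain. Of 18 class II and costimulation genes 2 were expressed. Cd74, the invariant chain, had 81, 81.4 and 73.2 FPKM, but H2-Aa and H2-Ab1, the chains it escorts, had 0.0707 ± 0.0384 and 0.132 ± 0.0203 FPKM, and Ciita, the master regulator of the class, was at 0. Cd80 had 5.28 ± 0.719 FPKM and Cd86 0.0434 ± 0.0122. Osteoclast genes were expressed in 10 of 18 cases (55.6%), beside 44.2% of protein-coding genes. Nfatc1, their master factor, had 17.9, 19.4 and 17.7 FPKM and the fusion protein gene Dcstamp 15.1, 16.1 and 16.9 FPKM. Acp5 had 2.53, 2.26 and 1.81, Mmp9 0.757 ± 0.0412 and Calcr 0.00567 ± 0.00982 FPKM. Of metalloproteinases and inhibitors 3 of 19 were expressed, Adam10 at 109 ± 26.2, Adam8 at 46.9 ± 2.11 and Adam17 at 20.8 ± 6.07 FPKM. Mmp12, the elastase of macrophages, had 0.00817 ± 0.00771 FPKM.

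Markers of other cell types were expressed in few cases. None of 20 granulocyte and mast cell genes, 20 stromal, endothelial and epithelial genes and 12 erythroid and megakaryocyte genes was expressed, and of 15 T and NK cell genes Lck alone was, at 2.1 ± 0.351 FPKM. Of 15 dendritic cell genes 4 were expressed, Bst2, Cd24a, Cadm1 and Itgax, which other cells share. Among 18 genes of B and plasma cells 4 were expressed. Ighm, the constant region of the IgM heavy chain, had 41.2, 43.4 and 43.1 FPKM, on 4203, 2463 and 2933 reads, with a CV of 2.86%. Blnk, an adaptor of the B cell receptor that macrophages also use, had 15.3, 15.9 and 16.1 FPKM. Dntt, which adds bases at the joints of antigen receptor genes in early lymphocytes, had 10.2, 9.97 and 9.58 FPKM, and Sdc1, the plasma cell marker CD138, 3.56 ± 0.519 FPKM. Of these 18 genes Ms4a1, Pax5, Rag1, Rag2 and Igkc were at 0 in every library, and Cd79a and Cd79b had 0.21 ± 0.0931 and 0.0861 ± 0.127 FPKM. Of 8 genes specific to males or tied to X inactivation 4 were expressed, all on the Y chromosome, Eif2s3y at 18.6, 20.2 and 24.9, Ddx3y at 10.4, 11 and 17.9, Uty at 2.61 ± 0.567 and Kdm5d at 2.05 ± 0.593 FPKM, while Usp9y and Zfy1 of the Y chromosome and Tsix were at 0 and Xist had 0.00137 ± 0.00157 FPKM.

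**Figure D3:**
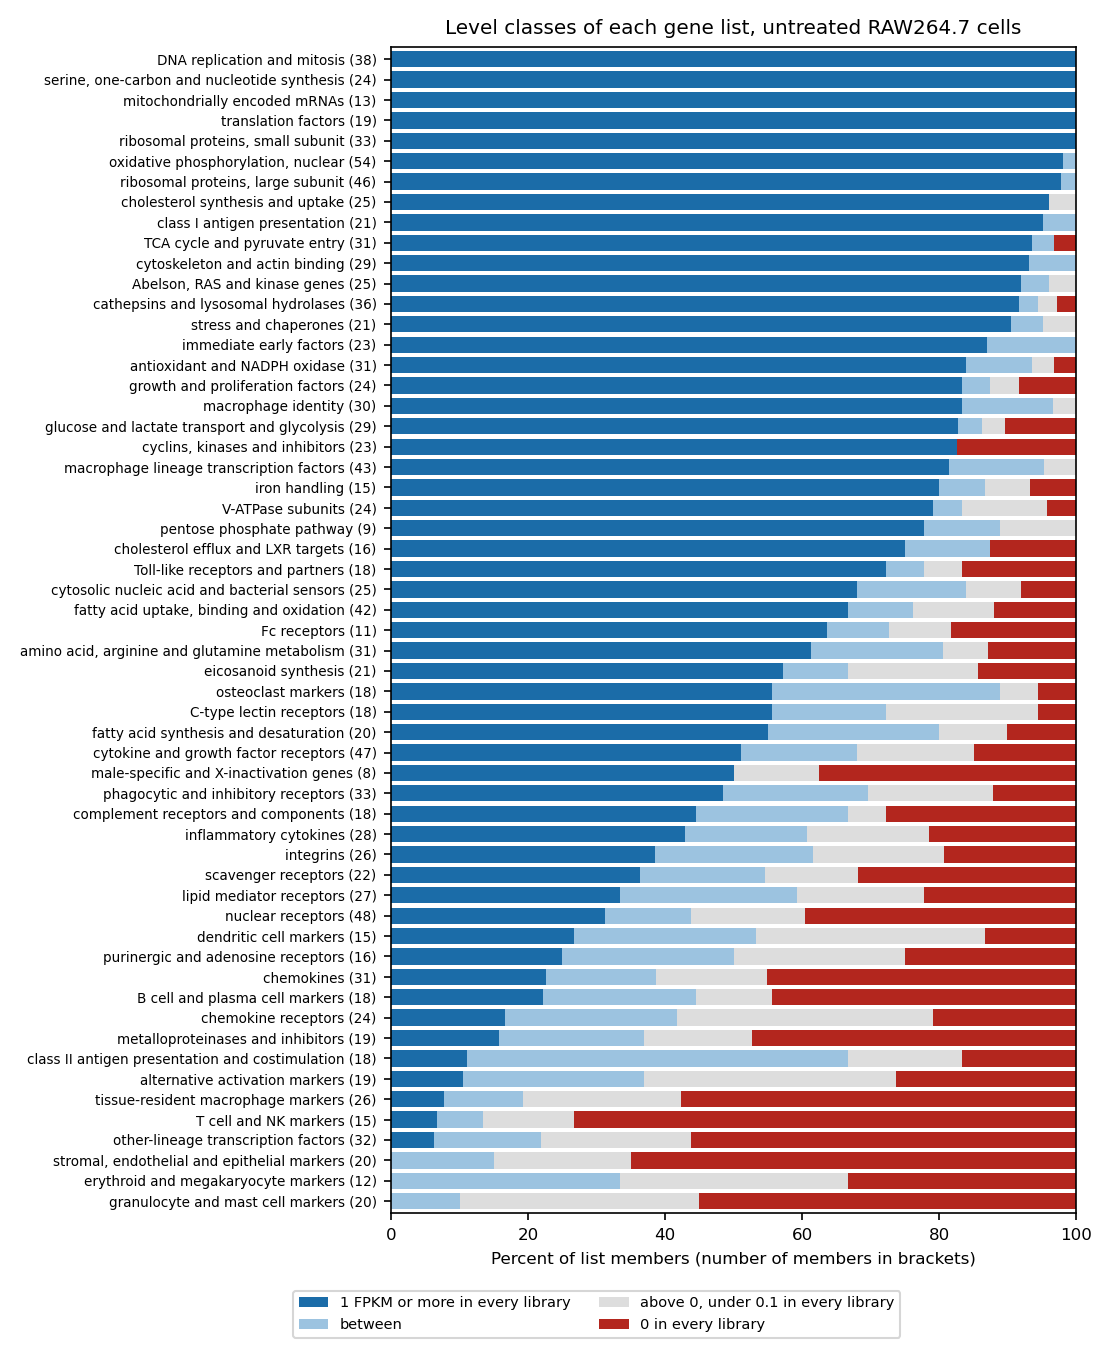
Share of each gene list in 4 level classes in the untreated libraries, with the number of members in brackets and lists ordered by the share at 1 FPKM or more in every library. Lists of growth and basic metabolism fill the top, Toll-like receptors stand at 13 of 18, and tissue-resident macrophage markers stand at 2 of 26 beside markers of other cell types. Lists overlap in part.

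Over all lists, 837 of 1319 genes (63.5%) were expressed, beside 44.2% of protein-coding genes, and 206 were at 0 in every library. The lists were chosen with results of these data known, so this share describes them and is no test.

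The 3 untreated libraries were alike in ranking and differed in detail. Among the 9836 genes with a mean of 1 FPKM or more, the median coefficient of variation (CV, SD over mean) was 12.5%, with quartiles at 7.23 and 19.7%. Counting error alone would give a median of 2.5% if reads were independent or 3.54% if mates of a pair were counted separately. In 88.8% of genes the CV exceeded the counting error of the latter case. The same median was 9.4% in the cells given the antibody, 14.6% in those given LPS and 6.28% in those given both. Without replicate 3 it was 6.81% in the untreated cells, without replicate 2 it was 15.8%. Across these genes, which are not independent, the Pearson correlation of log2(FPKM + 1) was 0.995 between replicates 1 and 2, 0.987 between 2 and 3 and 0.976 between 1 and 3. A difference over 2-fold was seen in 52, 68 and 159 genes for these pairs.

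Replicate 3 stood farthest from replicate 1, and the difference followed gene length and base composition. In genes of 500 to 1000 bases replicate 1 was higher than replicate 3 by a median of 0.57 on the log2 FPKM scale, and in genes of 8000 bases or more it was lower, at −0.46. For replicate 1 over replicate 2 the same medians were 0.27 and −0.18. Transcripts under 40% GC gave a median of −0.47 and those at 60% or more 0.27. Both patterns were seen with the other property held in a narrow range: among genes of 2000 to 4000 bases the median was −0.21 under 45% GC and 0.27 at 55% or more, and among genes of 45 to 55% GC it was 0.41 from 500 to 2000 bases and −0.23 from 4000 bases. The Spearman correlation of the log2 ratio across genes was −0.56 with length and 0.54 with GC content. Genes under 500 bases, 203 in number, varied most, with a median CV of 33.1%, and genes of 2000 to 4000 bases least, at 10.6%. What produced these gradients was not tested.

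**Figure D4:**
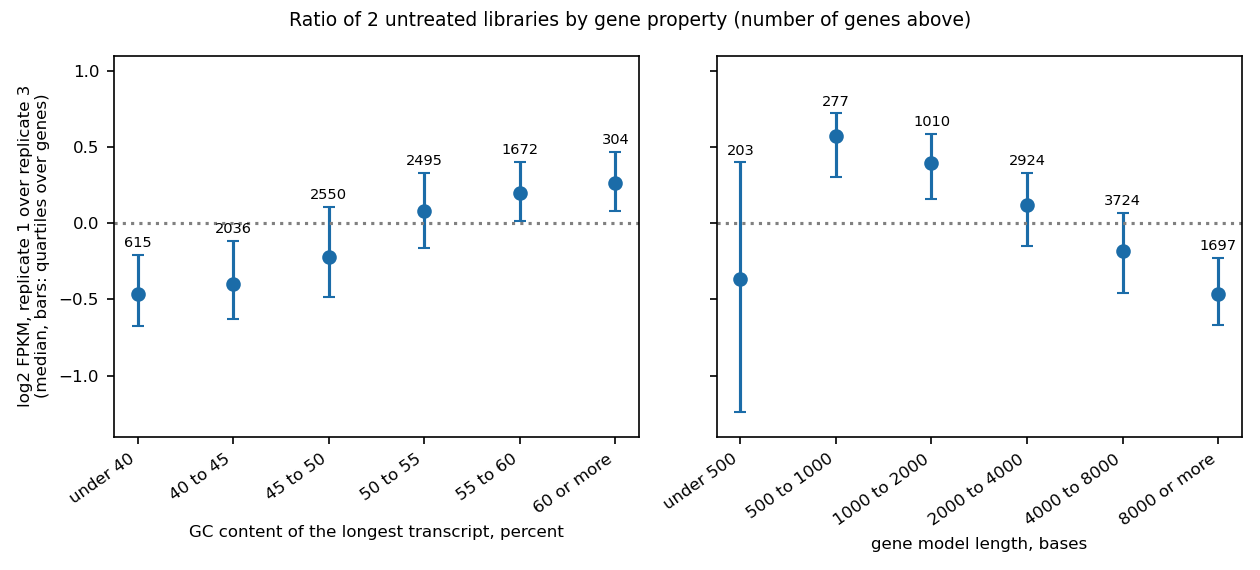
Median log2 ratio of FPKM in untreated replicate 1 over replicate 3 by GC content of the longest transcript and by gene model length, with bars from the lower to the upper quartile over genes and the number of genes above each bar. The ratio climbs with GC content from −0.47 to 0.27 and, from 500 bases up, falls with length from 0.57 to −0.46.

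Some named genes varied far more than the median. Cox8a, a short gene of cytochrome c oxidase, had 317, 213 and 146 FPKM in the 3 libraries. Among the 10 genes of largest CV with a mean of 10 FPKM or more were the long Ogt, which attaches sugar to nuclear proteins, at 17.9, 22.1 and 37.7 FPKM, and Slc5a3, an inositol carrier, at 30.3, 38.4 and 64 FPKM, both highest in replicate 3. Mir703, Gm22571, Snord73b and Ighj4, also in this set, are entries of 54 to 109 bases, shorter than a typical RNA-seq fragment. At the other end Thoc5, an mRNA export factor, had 23.8, 23.8 and 23.7 FPKM (CV 0.25%), Atxn10 86.5, 87.1 and 87.1 FPKM and Foxm1, the factor of mitotic genes, 18.3, 18.5 and 18.4 FPKM. These were taken from the extremes of the table and describe it only.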

How the data were processed

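RNA from RAW264.7 cells was sequenced, and the authors deposited FPKM values, a unit taken from the name and values of their table, for 12 libraries. Reads were aligned with HISAT2 2.0.5, and the builds mm39 and hg38 are named, per the submitters' processing notes. The counting tool and annotation are not given in the sources used here. Of 31801 entries, 82 with a duplicated symbol were left out, and so were Il6 and Il1b, whose untreated values were not their own. Depths and read numbers were recovered by finding the GENCODE M21 gene length at which values became whole reads within 0.005 reads, which held for 91.7% of 18167 entries above 0. Many low counts were even, so mates may have been counted separately. Levels, SD and CV were computed in Python 3.11.15 (pandas 2.3.3, numpy 2.4.6) and tried on simulated data of known depth and gene length. The simulation drew independent reads and did not test how depths and lengths were found. Pseudogene copies were compared with blastn 2.17.0. No test was made, since there is 1 group and no contrast. Members and lists were chosen with earlier results of these data known. Named genes were the 30 most abundant, members of 58 lists, the 10 of largest and the 10 of smallest CV at a mean of 10 FPKM or more, and a few fixed genes such as Cd36. The gene pairs and displayed promoters, and Gm10874, were chosen after values were seen. Alternatives changed the threshold, the scale, the filter and the libraries used. Some genes of the lists are not reported here.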

Additional observations from a re-analysis of the deposited data

How the results depend on the processing

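With 5 FPKM in place of 1 FPKM as the threshold, 6202 genes were expressed. Thresholds of 0.5 FPKM and 1 TPM gave 10245 and 10614, and leaving out 1 library gave 9604 to 9671. The 100 most abundant genes held 22.48% of reads, a scale that weights genes by length, and 30.33% of transcripts without mitochondrially encoded genes. Leaving out 1 library gave 36.28 to 38.5%. The median CV was 19.49% over all genes with a mean above 0, and 6.813 to 15.8% with 1 library left out. The share of listed genes expressed was 65.96% at 0.5 FPKM, 52.46% at 5 FPKM, 67.32% at 1 TPM, and 63.53 to 64.14% with 1 library left out. The levels of 10 genes (Cd36, Tlr4, Cd14, Csf1r, Adgre1, Spi1, Tnf, Nos2, Arg1 and Pycard) stayed within 1 SD in all 50 alternatives run. For those that left out 1 library this was fixed in advance, because the SD came from the same 3 libraries. The others rescaled each library by factors of 0.9695 to 1.016 or 0.9267 to 1.065. Such factors could hardly move a mean of 3 libraries, so these alternatives are no check of stability either. Ratios between genes had no alternatives. The comparison of promoters between silent and expressed genes was void, so its alternatives were run for expressed genes only. No paired analysis was possible because the results come from no test. Depth limits genes under 0.1 FPKM, which rest on few reads, and entries near or under the length of a fragment.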
